A study of Rattus norvegicus with 6 samples.

Results

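The 10 genes described here belong to the circadian clock of rat liver: Clock and Npas2, the activators; Per1, Per2, Per3 and Cry1, the repressors; Nr1d1 and Nr1d2, the nuclear receptors of the stabilising loop; and Dbp and Tef, transcription factors of the clock's output. They were chosen by name, through probes whose RefSeq accession belongs to these symbols, and all 10 were measured, by 23 probes out of the 61657 non-control probes on each array and as 10 of 28995 features (gene symbols or unnamed accessions) tested. Liver RNA came from 3 male Sprague-Dawley (Crl:CD(SD)) rats given bromodichloromethane at 200 mg/kg/day and 3 given corn oil alone, with 1 single-colour Agilent array per animal. Chlorination of drinking water yields bromodichloromethane, one of the trihalomethanes, and corn oil was the vehicle. The rats were bought at 5 weeks of age and kept on 12 h of light and 12 h of dark. The labels place the measurement at 28 days in one field and give 9 weeks of dosing in another, so the length of exposure is not settled. The time of day at which livers were taken and the feeding state are not given in the sources used here, and their part in any result below was not tested.

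The mammalian clock is a loop of transcription and translation. Heterodimers of BMAL1 with CLOCK or NPAS2 bind E-box elements and switch on the Per and Cry genes, whose proteins return to the nucleus and silence the heterodimer. The same elements drive Nr1d1 and Nr1d2, which encode REV-ERB alpha and beta, repressors of Bmal1, Npas2, Clock and Cry1. Dbp and Tef encode PAR bZIP factors that carry the rhythm to hepatic detoxification and metabolic genes through D-box elements. In rodent liver most of these transcripts rise and fall each day, Dbp with one of the widest swings, and Bmal1 and Npas2 peak when Dbp is near its trough.

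The promoter windows of Per2, Nr1d1 and Tef are shown because these genes, with Dbp and Nr1d2, were highest in the same animals, and because their windows hold letters that match clock elements. Windows reach from 250 bases before to 50 bases after an annotated start, are written 5′ to 3′ on the gene's strand, and come from RefSeq on GRCr8. Capitals mark matches to the E-box CACGTG, the noncanonical E-box CACGTT or the D-box TTATGNAA, searched on both strands. Both CACGTT and the D-box are known from the mouse Per2 promoter.
Per2, chr9:99496944-99497243, minus strand: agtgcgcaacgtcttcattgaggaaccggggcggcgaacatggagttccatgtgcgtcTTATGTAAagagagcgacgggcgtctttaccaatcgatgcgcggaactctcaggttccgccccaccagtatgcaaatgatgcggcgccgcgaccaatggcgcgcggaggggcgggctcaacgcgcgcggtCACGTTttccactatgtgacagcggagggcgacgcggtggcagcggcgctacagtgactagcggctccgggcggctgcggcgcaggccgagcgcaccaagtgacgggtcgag
Nr1d1, chr10:84229405-84229704, minus strand: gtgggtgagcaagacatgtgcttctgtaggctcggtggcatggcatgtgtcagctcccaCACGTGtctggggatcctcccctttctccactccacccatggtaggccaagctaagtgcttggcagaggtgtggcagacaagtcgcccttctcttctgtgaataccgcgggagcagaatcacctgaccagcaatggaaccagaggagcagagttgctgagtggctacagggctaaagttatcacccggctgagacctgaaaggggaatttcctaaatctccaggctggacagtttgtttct
Tef, chr7:115206577-115206876, plus strand: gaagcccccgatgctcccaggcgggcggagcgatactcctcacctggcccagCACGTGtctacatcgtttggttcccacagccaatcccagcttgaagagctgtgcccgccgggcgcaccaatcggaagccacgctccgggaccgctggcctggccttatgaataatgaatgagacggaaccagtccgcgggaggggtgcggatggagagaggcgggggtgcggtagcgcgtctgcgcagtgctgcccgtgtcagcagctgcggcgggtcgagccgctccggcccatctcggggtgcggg
RefSeq windows were matched for 9 of the 10 genes, 11 windows in all, and not for Cry1. CACGTG was in 2 of the 11 windows and in 6.42% of all 33469 windows, CACGTT in 2 windows and in 4.83%, and TTATGNAA in 1 window and in 3.66%. The nuclear receptor element AGGTCA was in the window of Nr1d2 and in 16.2% of all windows, and the cyclic AMP element TGACGTCA was in none of the 11 and in 1.83%. The second Nr1d1 window held CACGTT on the opposite strand. None of these letters stood in the windows of Per1, Per3, Dbp, Clock or Npas2, and a match is a description of the letters only.

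Each array's signal was divided by its own 75th percentile, which lay between 747 and 825 fluorescence units on the bromodichloromethane arrays and between 670 and 758 on the corn oil arrays, and levels below are given as this relative signal. The share of probes well above background was 65.3% to 66.9% on the bromodichloromethane arrays and 61.3% to 63.9% on the corn oil arrays, and no probe was saturated. The number of arrays limits the precision. Bromodichloromethane animal 1 and the 3 corn oil animals shared slide 1, and bromodichloromethane animals 2 and 3 were on slide 2. A fit with slide as a fixed block therefore takes its fold change from bromodichloromethane animal 1 against the 3 corn oil animals. For bromodichloromethane animals 2 and 3, slide and treatment cannot be told apart. All 6 hepatocyte markers were measured, with a summed relative signal of 2689 to 3066 in treated animals and 3136 to 3448 in corn oil animals, and Serpina1 among them was lower. Bile duct cell markers (3 of 4 measured) summed to 2.25 to 2.95 in treated animals and 1.24 to 1.56 in corn oil animals, with Epcam higher. Lymphocyte markers (4 of 6 measured) summed to 1.49 to 1.92 in treated animals and 1.19 to 1.42 in corn oil animals, and Cd3e among them was higher. Endothelial markers (2 of 4 measured) summed to 6.69 in every treated animal and to between 8.13 and 9.38 in corn oil animals, with Lyve1 lower, and red cell markers (3 of 4 measured) summed to 349 to 501 in treated animals and 525 to 779 in corn oil animals. Macrophage and stellate cell markers overlapped between the groups, and fat markers (Adipoq, Lep) were not well above background. The part of these markers in the results was not tested, and in whole liver fewer cells of a type and less RNA per cell cannot be told apart.

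Bromodichloromethane animals had less Per1 and more Cry1 RNA than corn oil animals, and no other clock gene of the 10 passed the test. Per1 was 2.08-fold lower and Cry1 was 2.28-fold higher. By contrast, Dbp, Per2, Nr1d1 and Npas2 differed more between animals of one group than between the groups. Differences were tested with limma over all 28995 features with Benjamini-Hochberg adjustment and a threshold of 0.05, and the same test called 9.36% of all features, 5.96% higher and 3.41% lower in treated livers. With 1 gene higher and 1 lower out of 10, the count alone says nothing particular about the clock genes. The groups did not overlap for the same 2 genes, 1 in each direction, against 34.4% of all features (18.4% higher and 16% lower in treated livers). The median log2 fold change of the 10 genes was -0.17, and that of all features was 0.0014. With scaling by spiked-in transcripts these medians were 0.32 and 0.48, so the sign of the first depends on the scaling.

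**Figure D1:**
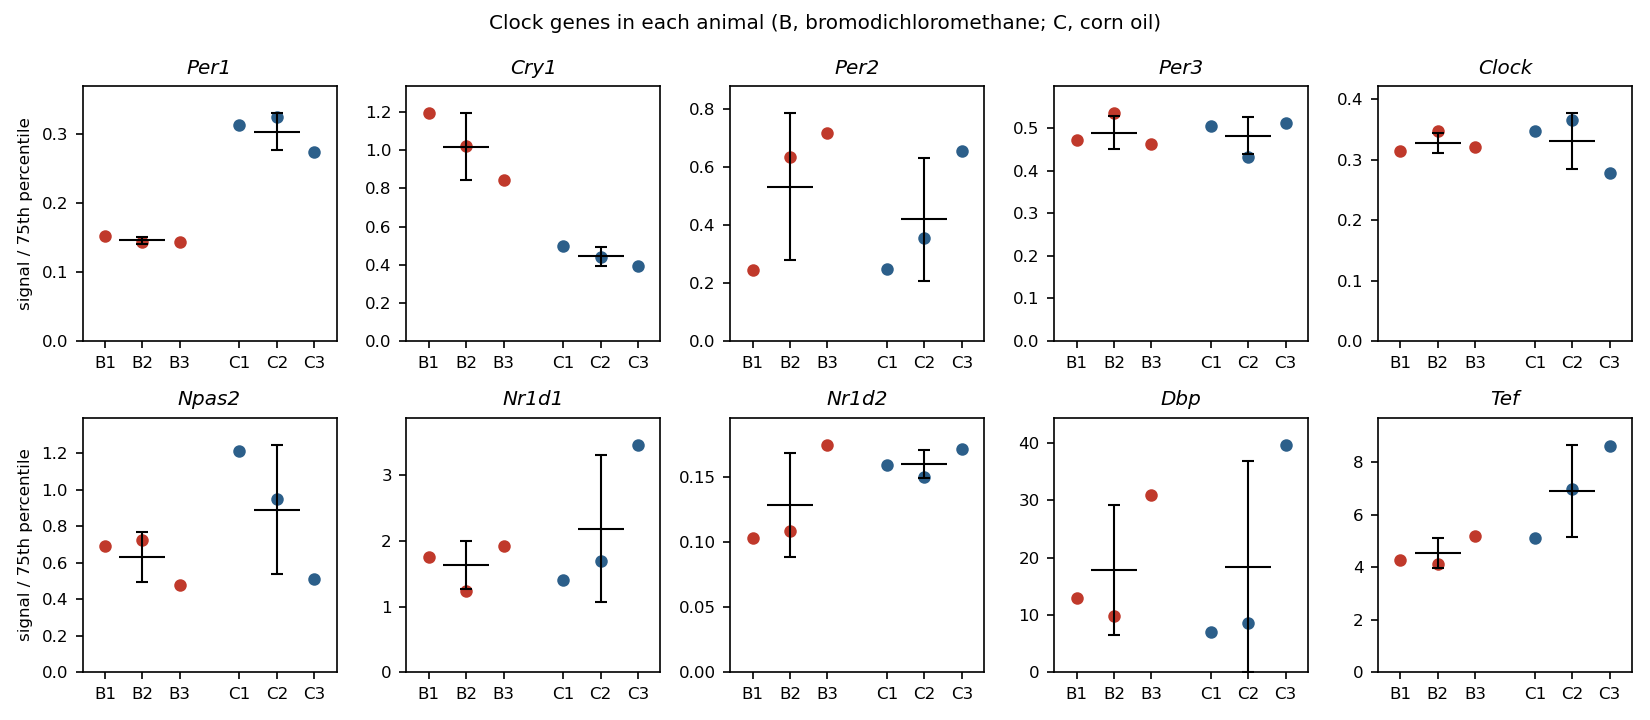
Relative signal (processed signal divided by the array's 75th percentile, linear axis from 0) of the 10 clock genes in each bromodichloromethane animal (B1 to B3, red) and corn oil animal (C1 to C3, blue); bars are the mean and SD of 3 animals. Per1 lies lower and Cry1 higher in all 3 treated animals, and Dbp is highest in B3 and C3.

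Per1 encodes a repressor of the clock and is also switched on acutely by glucocorticoids. Its relative signal was 0.152, 0.143 and 0.143 in bromodichloromethane animals 1, 2 and 3, against 0.312, 0.324 and 0.273 in corn oil animals 1, 2 and 3. Every treated animal was below every corn oil animal, and the treated animals were nearly equal. The log2 fold change was -1.05 (SE 0.10, 95% interval -1.29 to -0.82, adjusted p = 0.0071). Leaving out any 1 of the 6 animals kept Per1 past the threshold (adjusted p from 0.019 to 0.038). With slide as a block it was -0.996 on the log2 scale, and within slide 1 the value was the same. Those 2 fits take the value from treated animal 1 alone against the corn oil animals, so no call is read from either. A second, dimmer Per1 probe gave 0.0418, 0.0238 and 0.0539 in treated animals and 0.0547, 0.0523 and 0.0501 in corn oil animals. Its groups overlapped and it did not pass (-0.47 on the log2 scale, SE 0.29, adjusted p = 0.35 over all probes), and it was not well above background in treated animal 2. Fkbp5, another glucocorticoid-responsive gene, was named after its values were seen. It had relative signals of 5.98, 4.34 and 3.69 in treated animals and 4.73, 8.67 and 3.40 in corn oil animals, which overlapped. The log2 fold change of Fkbp5 was -0.18 (SE 0.36, 95% interval -1.06 to 0.70, adjusted p = 0.79). The part of glucocorticoids in the Per1 values was not tested.

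Cry1 encodes the partner of the PER proteins and a direct inhibitor of the activating heterodimer. It had a relative signal of 1.19, 1.02 and 0.842 in bromodichloromethane animals 1, 2 and 3, against 0.498, 0.438 and 0.394 in corn oil animals 1, 2 and 3. The lowest treated animal was well above the highest corn oil animal, and within each group animal 3 had the least Cry1. The log2 fold change was 1.19 (SE 0.16, 95% interval 0.81 to 1.58, adjusted p = 0.015). With slide as a block the log2 fold change was 1.44, the same value as within slide 1. Both set treated animal 1 alone against the corn oil animals, so no call is read from them. The call ended without bromodichloromethane animal 2 (adjusted p = 0.068) or without corn oil animal 2 (adjusted p = 0.061). The array held a single probe for Cry1. Its paralogue Cry2 stood at 0.179, 0.163 and 0.174 in treated animals and at 0.159, 0.156 and 0.213 in corn oil animals, and its groups overlapped (-0.02 on the log2 scale, SE 0.14, adjusted p = 0.94).

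Per2, the Per gene whose protein sets much of the pace of the loop, did not separate the groups. Its relative signal was 0.245, 0.637 and 0.719 in bromodichloromethane animals 1, 2 and 3, and 0.248, 0.355 and 0.658 in corn oil animals 1, 2 and 3. Animal 1 was lowest and animal 3 highest in both groups, and the span was 2.93-fold among treated and 2.65-fold among corn oil animals. Treated over corn oil, it stood at 0.32 on the log2 scale (SE 0.52, 95% interval -0.94 to 1.57, adjusted p = 0.74). Within slide 1, where the treated group is 1 animal, it was -0.66, so that no direction is given.

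Per3, whose protein is the least essential of the PER proteins to the core loop in mice, was read by 5 probes, of which 2 were well above background on every array. The brightest, A_64_P119407, stood for the gene and gave 0.472, 0.534 and 0.461 in treated animals and 0.504, 0.432 and 0.511 in corn oil animals. Its values were nearly level, and its log2 fold change was 0.02 (SE 0.11, 95% interval -0.25 to 0.29, adjusted p = 0.92). Probe A_44_P196198 gave 0.0435, 0.0325 and 0.0613 in treated animals and 0.0190, 0.0275 and 0.0775 in corn oil animals, highest in animal 3 of both groups, but it was well above background in all 3 treated animals and in corn oil animal 3 alone, so no difference is read from it. Over all 6 animals the brightest probe spanned 1.24-fold and A_64_P119405, the other one well above background throughout, spanned 1.85-fold (log2 fold change 0.40, SE 0.25, adjusted p = 0.36 over all probes). The remaining 2 probes did not pass the filter on dim probes.

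Clock encodes the DNA-binding partner of BMAL1. Its brightest probe gave 0.315, 0.347 and 0.321 in treated animals and 0.347, 0.366 and 0.278 in corn oil animals. The groups overlapped and spanned only 1.32-fold in all, and the difference was -0.0038 on the log2 scale (SE 0.13, 95% interval -0.31 to 0.30, adjusted p = 0.99). The other 2 Clock probes stood at -0.33 (SE 0.12) and -0.16 (SE 0.11) on the log2 scale, and neither passed (adjusted p = 0.14 and 0.39 over all probes).

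Npas2 encodes the paralogue that can stand in for CLOCK. Its brightest probe gave 0.692, 0.724 and 0.476 in bromodichloromethane animals and 1.21, 0.949 and 0.511 in corn oil animals. Animal 3 was lowest in both groups, and the groups overlapped only through corn oil animal 3. For the brightest probe the log2 fold change was -0.43 (SE 0.34, 95% interval -1.26 to 0.40, adjusted p = 0.46), and a second probe stood at 0.10 (SE 0.15, adjusted p = 0.72 over all probes). The dimmest Npas2 probe was well above background in all 3 treated animals and in corn oil animal 2 alone, so it passed the filter only through the treated group and no direction is read from it. Bmal1, the partner of both activators and no part of the chosen set, followed the brightest Npas2 probe in its order of animals within each group. It had 2.18, 2.41 and 1.83 in treated animals and 2.53, 2.24 and 0.990 in corn oil animals. Its lowest value was again in animal 3 of each group, and the groups overlapped (log2 fold change 0.26, SE 0.36, adjusted p = 0.69).

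Nr1d1, which encodes REV-ERB alpha, had a relative signal of 1.75, 1.23 and 1.93 in bromodichloromethane animals and 1.40, 1.69 and 3.46 in corn oil animals. Corn oil animal 3 stood apart from the other 5 animals, and the groups overlapped. Its log2 fold change was -0.33 (SE 0.36, 95% interval -1.21 to 0.55, adjusted p = 0.61) and 0.06 without corn oil animal 3. Nr1d2, which encodes REV-ERB beta, had 0.103, 0.109 and 0.175 in treated animals and 0.159, 0.150 and 0.171 in corn oil animals. Treated animals 1 and 2 were below all corn oil animals, whereas treated animal 3 was the highest of all 6. The log2 fold change of Nr1d2 was -0.35 (SE 0.21, 95% interval -0.87 to 0.16, adjusted p = 0.34).

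Dbp varied most. Its relative signal was 13.0, 9.87 and 30.9 in bromodichloromethane animals 1, 2 and 3, against 7.04, 8.56 and 39.7 in corn oil animals 1, 2 and 3. Animal 3 was far above the other 2 animals in both groups, with a span of 3.13-fold among treated and 5.64-fold among corn oil animals. Between the groups Dbp stood at 0.24 on the log2 scale (SE 0.75, 95% interval -1.57 to 2.06, adjusted p = 0.87). It stood at 1.03 without corn oil animal 3, and at -0.24, -0.22 and -0.08 without bromodichloromethane animal 3, corn oil animal 1 and corn oil animal 2, so no direction is given. All 4 Dbp probes gave the same order of high and low animals apart from the ranks of treated animal 2 and corn oil animal 2, with spans of 5.64-fold to 7.98-fold over the 6 animals. The spread of Dbp within groups, 1.14 on the log2 scale, was larger than that of 99.2% of features, that of Per2 (0.78) larger than 97.7%, that of Nr1d1 (0.54) larger than 94.0% and that of Npas2 (0.51) larger than 93.0%. The spread of Per1 (0.10) was larger than that of 21.9% of features. The interval of Dbp therefore spans large changes in both directions.

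Tef, the PAR bZIP relative of Dbp, had a relative signal of 4.30, 4.13 and 5.19 in bromodichloromethane animals 1, 2 and 3, and 5.13, 6.98 and 8.64 in corn oil animals 1, 2 and 3. Treated animals lay at the low end, and only treated animal 3 reached the range of the corn oil animals, just above corn oil animal 1. On the log2 scale the difference was -0.58 (SE 0.21, 95% interval -1.08 to -0.08), which did not pass after adjustment (adjusted p = 0.13). The dimmer Tef probe gave -0.53 (SE 0.24, adjusted p = 0.23 over all probes).

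**Figure D2:**
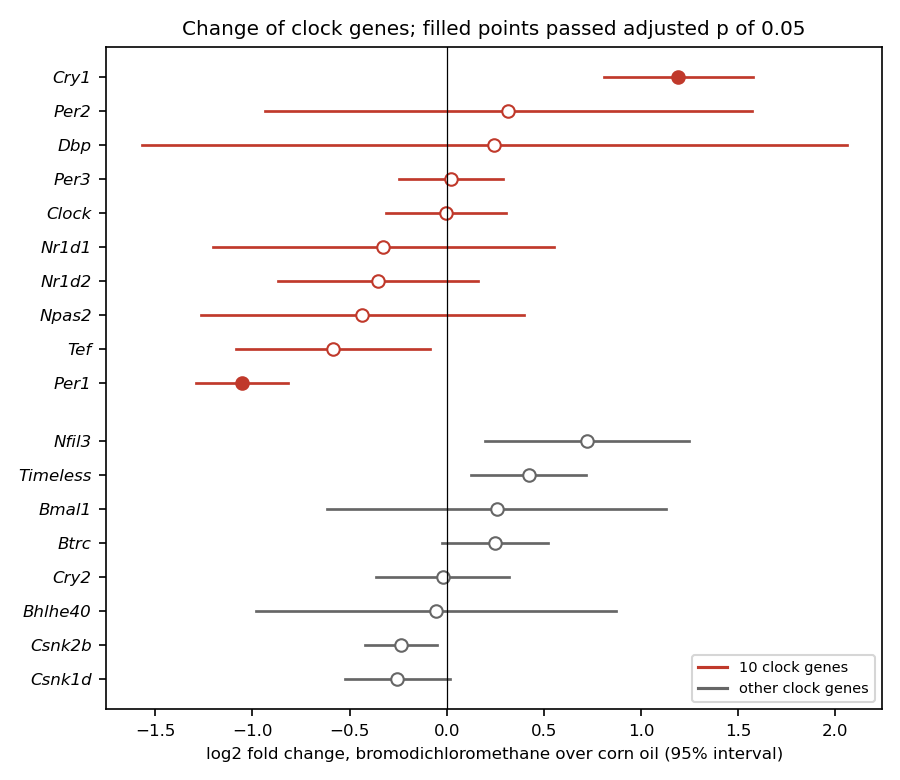
Log2 fold change, bromodichloromethane over corn oil, with its 95% interval from limma for the 10 clock genes (red) and 8 other clock genes (grey); filled points passed an adjusted p of 0.05. Only Cry1 at 1.19 and Per1 at -1.05 are filled, and Dbp has the widest interval.

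In 7 of the 10 genes, each read by its brightest probe, animal 3 was at the same extreme in both groups. Per2, Nr1d1, Nr1d2, Dbp and Tef were highest in animal 3 of both groups. Cry1 and, by its brightest probe, Npas2 were lowest in animal 3 of both groups, and Cry1 also separated the groups. The second Npas2 probe was lowest in animal 1 among treated animals. Per1, Clock and the brightest Per3 probe did not show this. Of all 28995 features, 13.6% were highest and 11% were lowest in animal 3 of both groups. The number 3 is a label of separate animals in the separate groups. The labels state no pairing of same-numbered animals, and they were not treated as pairs. The pattern was seen after the values were known and was not tested. Without both animals numbered 3, an alternative chosen after seeing the data, Per1 stood at -1.11 (adjusted p = 0.069) and Cry1 at 1.24 (adjusted p = 0.075) on the log2 scale, and 0 of the 10 genes passed with 2 animals a group, where 89 of all features passed.

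**Figure D3:**
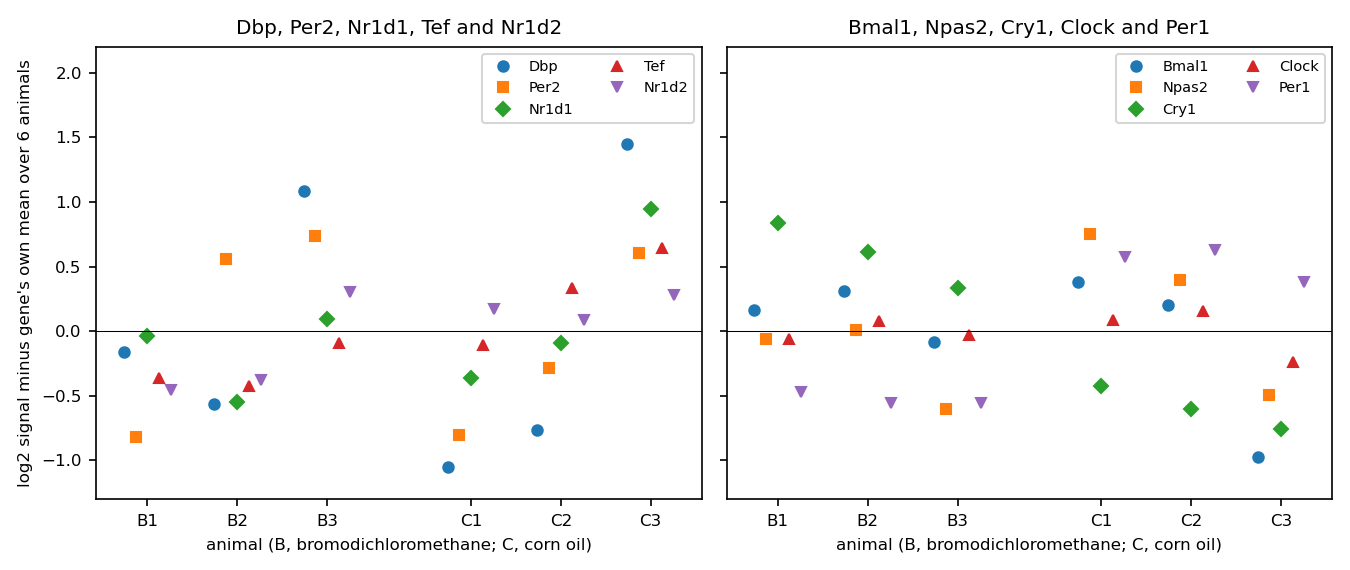
Log2 signal of each gene minus its own mean over the 6 animals, for bromodichloromethane animals B1 to B3 and corn oil animals C1 to C3; each symbol is 1 gene in 1 animal. Dbp, Per2, Nr1d1, Tef and Nr1d2 are highest in B3 and C3 of their groups, Bmal1, Npas2 and Cry1 are lowest there, and Per1 and Cry1 separate the groups.

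In the plot of single probes, all 4 probes of Dbp were highest in animal 3 of both groups. So was Per3 probe A_64_P119405, whereas the brightest Per3 probe was nearly level and the dimmest, which was not measured in either group, was highest in treated animal 1 among treated animals.

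**Figure D4:**
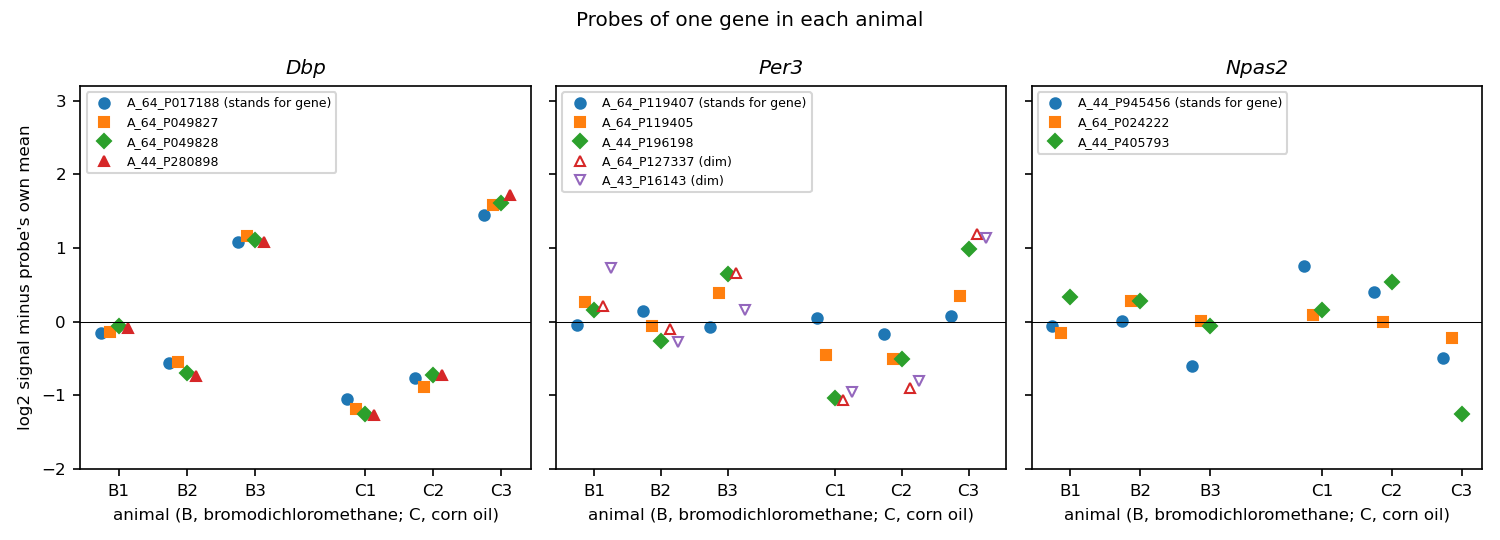
Log2 signal of every probe of Dbp, Per3 and Npas2 minus the probe's own mean over the 6 animals; open symbols are probes not well above background on all 3 arrays of either group. The 4 Dbp probes lie close together, and the brightest Per3 probe (A_64_P119407) is nearly level.

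Features nearest to Dbp and Npas2 were named by the smallest root mean square difference of their log2 values over the 6 arrays after removal of each feature's mean, among 10841 named genes well above background on all arrays. Nearest to Dbp was Creg1 (0.30), a secreted lysosomal glycoprotein, with 17.9, 25.6 and 53.7 in bromodichloromethane animals and 16.1, 16.3 and 69.7 in corn oil animals. Ppara (0.32), the fatty acid sensing nuclear receptor, followed with 1.79, 1.79 and 3.41 in treated animals and 1.06, 1.57 and 4.06 in corn oil animals. Phgdh (0.41), the first enzyme of serine synthesis, Fgf21 (0.50), a fasting hormone of the liver, and Ccdc77 (0.51) came next. Nearest to Npas2 was Tspan33 (0.08), a tetraspanin, with 0.768, 0.816 and 0.610 in treated animals and 1.41, 1.03 and 0.597 in corn oil animals. Grxcr2 (0.17), Il1rn (0.18), the interleukin 1 receptor antagonist, Cebpd (0.19), a bZIP factor of the acute phase, and Slc6a17 (0.19) came next. These 10 genes were picked for their likeness to Dbp or Npas2, so their order of animals is no separate observation.

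Of 30 further genes of the clock, which hold Bmal1, Cry2, the kinases and ligases that act on PER and CRY and the remaining bHLH and bZIP factors, 20 were on the array by accession and 19 were measured; Ciart was not well above background. By limma 0 of the 19 passed, 4 had an unadjusted p under 0.05 (27.5% of all features did), and with normexp background correction 1, Nfil3, passed. The median log2 fold change was -0.02, and 0.46 with spike-in scaling. Of the 19 genes, 4 were higher and 3 lower without overlap of the groups, against 34.4% of all features in either direction. Nfil3, a bZIP repressor at the same D-boxes as Dbp and Tef, had 2.10, 3.13 and 1.95 in bromodichloromethane animals and 1.72, 1.32 and 1.26 in corn oil animals. The groups did not overlap, yet the log2 fold change of 0.72 (SE 0.22) did not pass (adjusted p = 0.092). Timeless, a replication fork protein named for its fly relative in the clock, had 0.484, 0.555 and 0.543 in treated animals and 0.454, 0.363 and 0.368 in corn oil animals (log2 fold change 0.42, SE 0.12, adjusted p = 0.085). Csnk2b, a subunit of casein kinase 2, and Csnk1d, the casein kinase 1 delta that phosphorylates PER proteins, stood at -0.24 and -0.25 on the log2 scale, and Btrc, a ligase subunit, at 0.25, with groups that did not overlap and adjusted p of 0.11, 0.20 and 0.21. Bhlhe40, a repressor at E-boxes, overlapped between the groups, with 0.387, 0.725 and 0.399 in treated animals and 0.348, 0.443 and 0.813 in corn oil animals (log2 fold change -0.05, SE 0.38, adjusted p = 0.94).

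Of 42 genes known as rhythmic in rodent liver downstream of the clock, of feeding or of systemic cues, 37 were measured, 2 rose, 2 fell and 33 did not pass. The share called, 10.8%, is near the 9.36% of all features, and the median log2 fold change was -0.16, and 0.33 with spike-in scaling. Of the 37 genes, 3 were higher and 8 lower without overlap of the groups, against 34.4% of all features in either direction. Wee1, a mitotic kinase gene under direct E-box control, was called higher in treated animals, and a link to Cry1 was not tested. It had 1.42, 1.18 and 0.972 in bromodichloromethane animals and 0.594, 0.506 and 0.508 in corn oil animals, without overlap (log2 fold change 1.14, SE 0.16, adjusted p = 0.017). Its call held in 4 of the 6 fits that left out 1 animal, but not without bromodichloromethane animal 2 (adjusted p = 0.070) or corn oil animal 2 (adjusted p = 0.065). With slide as a block, which sets treated animal 1 alone against the corn oil animals, its log2 fold change was 1.41. No call is read from that value.

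Noct, the deadenylase-like phosphatase nocturnin, fell, with 0.819, 0.688 and 0.497 in bromodichloromethane animals and 1.13, 2.21 and 2.06 in corn oil animals (2.64-fold lower, SE 0.31 on the log2 scale, adjusted p = 0.043). Rgs16, a regulator of G protein signalling that follows feeding time in mice, rose, with 0.183, 0.267 and 0.140 in treated animals and 0.0955, 0.0937 and 0.0770 in corn oil animals (log2 fold change 1.10, SE 0.24, adjusted p = 0.043). The groups did not overlap for either gene. Usp2, a deubiquitinase that acts on clock proteins, was lower, with 5.19, 4.62 and 4.79 in treated animals and 6.18, 6.37 and 6.44 in corn oil animals (log2 fold change -0.38, SE 0.09, adjusted p = 0.046). These 3 calls were close to the threshold: of the 6 fits that left out 1 animal Noct passed in 1, Rgs16 in 1 and Usp2 in 0. With slide as a random block the adjusted p of Noct, Rgs16 and Usp2 was 0.054, 0.053 and 0.056. With slide as a fixed block, which sets treated animal 1 alone against the corn oil animals, their log2 fold changes were -1.08, 1.05 and -0.28. Averaging over the probes of a gene gave log2 fold changes of 1.97 for Rgs16 (adjusted p = 0.020), -0.64 for Usp2 (adjusted p = 0.074) and -1.43 for Noct (adjusted p = 0.057), which ended the calls of Usp2 and Noct. Normexp background correction gave 0.60 for Rgs16 (adjusted p = 0.059) and -0.27 for Usp2 (adjusted p = 0.074), which ended both calls. Noct passed with it (-1.32, adjusted p = 0.020).

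Avpr1a, the hepatic vasopressin receptor, had 4.68, 5.01 and 5.53 in treated animals and 9.03, 10.2 and 5.94 in corn oil animals (log2 fold change -0.69, SE 0.21, adjusted p = 0.095), and the groups did not overlap.

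**Figure D5:**
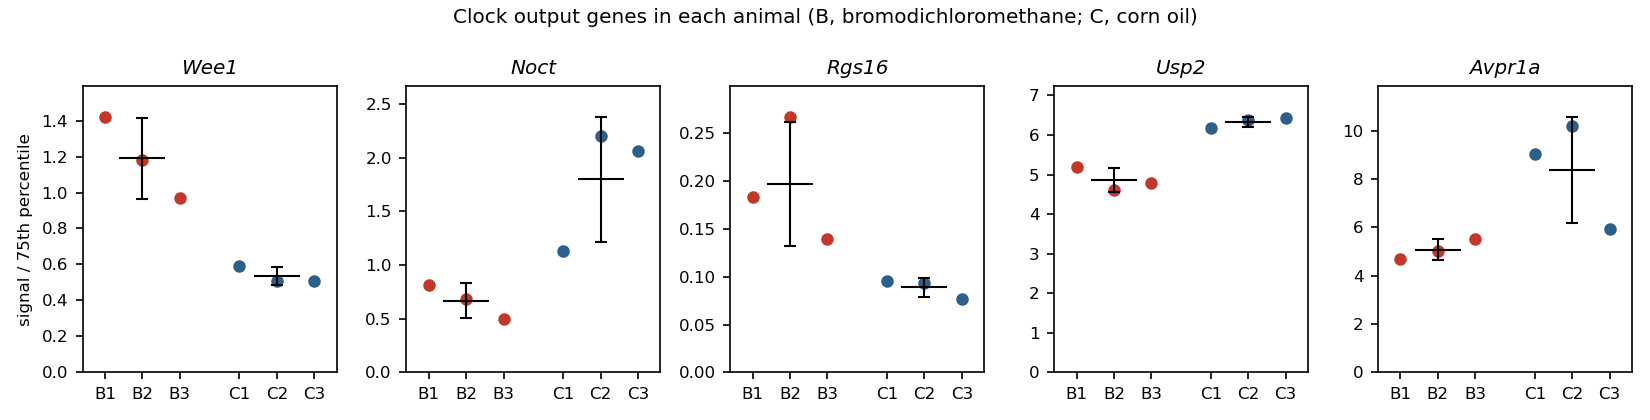
Relative signal (linear axis from 0) of the 4 clock output genes that passed, Wee1, Noct, Rgs16 and Usp2, and of Avpr1a, which did not, in bromodichloromethane animals (B1 to B3, red) and corn oil animals (C1 to C3, blue), with the mean and SD of 3 animals. The groups do not overlap for any of the 5 genes, which was also the case for 34.4% of all features.

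Every fold change above is set against the arrays' 75th percentiles. Scaling by the spiked-in control transcripts moved the median of all features to 0.48 on the log2 scale. On that scale Per1 was still lower (-0.57, adjusted p = 0.024) and Cry1 higher (1.68, adjusted p = 0.0014), Noct was at -0.92, and Usp2 turned to 0.10 (adjusted p = 0.55).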

How the data were processed

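RNA of 6 livers was hybridised singly to Agilent arrays in 1 colour (Cy3), per the labels' protocols, and the submitters' processing notes name Agilent Feature Extraction 10.7. The deposited scanner files hold linear intensity values per spot after background subtraction by that software, without scaling between arrays. The authors' deposited value table is a linear ratio: its values match the processed signal over each array's 75th percentile (at least 96.4% of probes within 1%); no gene centring was seen, the column medians run from 0.0954 to 0.102, and the table served as an alternative. The authors' statistics are not given in the sources used here.

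From the log2 of each processed intensity the array's 75th percentile (61657 non-control probes) was subtracted. Probes flagged as non-uniform or outliers on any array (27) were left out. Unversioned accessions were matched to RefSeq transcripts on GRCr8, for names and promoter windows only, since the array design is on an earlier build, per the file headers; 27460 probes (44.5%) matched 1 symbol and 0 matched several. A probe was kept when well above background on all 3 arrays of a group, and the brightest probe stood for a gene. The test was limma 3.58.1 under R 4.3.3 (lmFit, eBayes, two-sided, Benjamini-Hochberg over 28995 features, threshold 0.05). The SE is the moderated one. The fit was also run on simulated data with known changes. These held independent values and no slide effect, so they say nothing on slide. Each p-value sets the group difference against the spread between arrays of 1 animal each, in which animal, array and slide are not separated.

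The genes and lists were chosen with earlier results of these data known, and no test was made over a list. Genes named are the 10 members, 8 fixed clock genes where measured, list genes past the threshold or up to 6 by p, and the 5 nearest to Dbp and to Npas2; Fkbp5 was named after its values were seen. Hlf and Bhlhe41 were not matched by accession and are not analysed here, and some genes that the rule names are not reported here. The scanner files hold no mean spot signal, so normexp (offset 50) used the median signal and its local background. Same-numbered animals were not treated as pairs, since not every correlation passed 0.1: their deviations from the group means correlated at 0.09, 0.02 and 0.12 over features, which are not independent replicates.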

Additional observations from a re-analysis of the deposited data

How the results depend on the processing

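Quantile normalization, median centring, normexp, trend and robust options, a stricter filter, slide as a random block and the authors' value table left Per1 lower and Cry1 higher past the threshold. The log2 fold change of Per1 was smaller with normexp, at -0.70. The mean over its probes also made it smaller, at -0.76 (limma adjusted p = 0.042). The causes of the changes below were not tested. All features past the threshold, 2715, became 609 without the filter on dim probes, 12996 with spike-in scaling, 350 with slide as a fixed block, 120 within slide 1, 353 with the replicate block and 89 without replicate 3 of both groups, and 335 to 1232 when 1 animal was left out; fewer arrays, fewer residual degrees of freedom or more features tested go with all but the second. The count of clock genes, 2 of 10, became 0 without replicate 3 of both groups, and 1 to 2 when 1 animal was left out. The other clock genes, 0 as reported, became 1 with normexp and 7 with spike-in scaling, and stayed at 0 when any 1 animal was left out. The clock output genes, 4 as reported, became 2 with the mean over probes, 1 without the filter, 1 with slide as a random block and 10 with spike-in scaling. They became 2 with the replicate block, 0 without replicate 3 of both groups, and 0 to 3 when 1 animal was left out.

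Among the 10 clock genes, directions turned only for those that had not passed. On slide 1 alone or with slide as a fixed block the log2 fold changes were -0.66 for Per2, -0.027 for Per3 and -0.036 for Dbp. Per3 was at -0.017 with normexp. Clock was at 0.013 with normexp, 0.0011 with quantile normalization, 0.053 with median centring and 0.48 with spike-in scaling. Spike-in scaling gave 0.049 for Npas2, 0.16 for Nr1d1 and 0.13 for Nr1d2, and the mean over probes gave 0.011 for Npas2. When 1 animal was left out the ranges were -0.0037 to 0.81 for Per2, -0.056 to 0.066 for Per3, -0.12 to 0.075 for Clock, -0.59 to 0.063 for Nr1d1 and -0.24 to 1.03 for Dbp. The share of higher calls among all features, 63.6%, was 74.2% with median centring and 97.6% with spike-in scaling. With the replicate block both Per1 and Cry1 passed (adjusted p = 0.043 and 0.034); every animal correlated best with the animal of its own number in the other group, a hint from the data and not from the design. The second Per1 probe, the dimmest Npas2 probe and 3 of the 5 Per3 probes were not well above background on every array, which limits what they show.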

Other observations

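Other rhythmic genes of the list, chosen here after their values were seen, are given by animal. Cyp7a1, the rate-limiting enzyme of bile acid synthesis, had a relative signal of 1.98, 0.281 and 0.390 in bromodichloromethane animals 1, 2 and 3, and 0.501, 0.802 and 0.834 in corn oil animals 1, 2 and 3 (log2 fold change -0.21, SE 0.73, limma adjusted p = 0.88). Treated animal 1 was above all other animals and the other treated animals were below all corn oil animals. Nampt, which makes the NAD precursor nicotinamide mononucleotide, was highest in corn oil animal 1 at 5.92, against 3.01 to 4.62 in treated animals and 2.39 and 2.68 in the other corn oil animals. Alas1, the first enzyme of haem synthesis and a target of the clock, had 115, 73.7 and 74.3 in treated animals and 160.2, 112 and 73.1 in corn oil animals; the groups overlapped (log2 fold change -0.35, SE 0.32, limma adjusted p = 0.52). Cirbp, the cold-inducible RNA-binding protein, had 0.443, 0.256 and 0.217 in treated animals and 0.416, 0.450 and 0.406 in corn oil animals (log2 fold change -0.54, SE 0.26, limma adjusted p = 0.24). Without treated animal 1, the treated animal on the slide of the corn oil animals, Cirbp passed (-0.84, adjusted p = 0.035). With slide as a block, which sets treated animal 1 alone against the corn oil animals, Cirbp stood at 0.06. Slide and animal cannot be told apart here.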
